A study of Homo sapiens with 6 samples.

Results

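The 33 genes described here act in G2 and mitosis, from entry into mitosis to the final separation of the daughter cells. They were chosen by symbol from a list of genes with these roles. The list applies no threshold on measured values, but it was written with earlier results of these data known. All 33 symbols were found among 60605 gene rows of the deposited table, each in 1 row, and all 33 passed the filter on low values that left 12829 genes for testing (a mean of at least 1 FPKM, counts scaled by gene length and by library total, over the 6 libraries). RNA was sequenced from Huh-7 cells, a human hepatoma line, in 2 groups of 3 libraries. Every library came from cells that had first been given oleic acid (100 µM for 24 h) to load them with lipid and had then been starved. The control group received DMSO with 0 µM pectolinarigenin, and the other group received 100 µM pectolinarigenin, a plant flavone, for 24 h. A single tumour line serves as the model, and nothing in the labels states that libraries of the same group were grown as separate cultures. The p-values therefore reflect the spread among these 6 libraries, and that spread may be technical.

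Entry into mitosis is driven by the kinase CDK1 bound to cyclin A or cyclin B, with the phosphatase CDC25C removing an inhibitory phosphate. Aurora and Polo kinases, kinesin motors and microtubule-binding proteins then build the spindle, while checkpoint proteins at the kinetochores hold back the anaphase-promoting complex until every chromosome is attached. Most of these genes are transcribed periodically, low in G1 and high in G2 and mitosis, and many of their promoters carry CCAAT boxes, bound by NF-Y, and a cell cycle homology region (CHR), through which the DREAM and MuvB complexes act.

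Promoter sequences were available in RefSeq (GRCh38.p14) for 27 of the 33 genes, and 5 are shown because they carry both elements and belong to genes that rose (CDC20, HMMR), fell (KIF11, MKI67) or did not pass the test (PLK1). Each is the 150 bases before the RefSeq start, 5′ to 3′ on the gene's strand, and some annotated transcripts start further upstream. Capitals mark every match to TTTGAA or TTCGAA (CHR) or to CCAAT, searched on both strands with overlapping matches allowed. The regions are chr1:43358831-43358980 (plus strand), chr5:163460482-163460631 (plus), chr10:92592980-92593129 (plus), chr10:128126424-128126573 (minus) and chr16:23678739-23678888 (plus), in the order of the lines.
CDC20: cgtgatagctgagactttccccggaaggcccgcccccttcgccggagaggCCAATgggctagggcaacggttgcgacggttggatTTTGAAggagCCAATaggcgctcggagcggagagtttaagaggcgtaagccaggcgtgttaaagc
HMMR: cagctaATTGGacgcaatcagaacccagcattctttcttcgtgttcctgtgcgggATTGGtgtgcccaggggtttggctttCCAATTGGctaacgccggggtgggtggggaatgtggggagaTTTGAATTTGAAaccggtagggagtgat
KIF11: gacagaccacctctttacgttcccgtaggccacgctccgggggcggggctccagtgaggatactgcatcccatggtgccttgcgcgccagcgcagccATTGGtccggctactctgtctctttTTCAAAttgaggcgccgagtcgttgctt
MKI67: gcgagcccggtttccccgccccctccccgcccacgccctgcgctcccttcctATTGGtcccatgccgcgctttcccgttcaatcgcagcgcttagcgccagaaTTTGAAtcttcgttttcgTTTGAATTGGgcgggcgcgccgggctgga
PLK1: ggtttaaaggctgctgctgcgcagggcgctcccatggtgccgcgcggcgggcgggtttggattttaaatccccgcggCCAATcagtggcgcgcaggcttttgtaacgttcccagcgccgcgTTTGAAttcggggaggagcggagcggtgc

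In the 250 bases before the start, 22 of 27 promoters (81.5%) held CCAAT, against 36.1% of the 8979 matched promoters of tested genes and 33% of all 27305 promoters in the table. A CHR was found in 15 of 27 (55.6%), against 9.89% and 14.6%. The elements were present among genes that rose and genes that fell: CHR in 4 of 6 that rose, 5 of 12 that fell and 6 of 9 that did not pass, and CCAAT in 6 of 6, 8 of 12 and 8 of 9. CCNB1 held 2 CCAAT boxes and no match to TTTGAA or TTCGAA, the only CHR sequences searched, in this window. With the 50 bases after the start included, 19 of the 27 promoters (70.4%) held a CHR, against 11.5% for tested genes and 16.6% of all promoters. These are matches of letters, with no measurement of binding.

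The group did not move in 1 direction. Of the 33 genes, 14 fell, 9 rose and 10 did not pass (edgeR, adjusted p under 0.05), and on the log2 scale the largest falls exceeded the largest rises. TOP2A fell by 47.1%, CDK1 fell by 42.3%, MKI67 fell by 41.6% and KIF11 fell by 41.3%, whereas CDC20 rose by 55.7%, HMMR by 47.4% and CCNB1 by 33.2%. No member changed 2-fold, as 3.87% of all tested genes did. Many genes changed in these libraries: 50.6% of all tested genes were called, 25.3% higher and 25.3% lower. Against that background the members had 69.7% called, 27.3% higher and 42.4% lower. The share that rose was thus near the background and the share that fell was above it, with no test of that difference. This background was not matched for level, and the members had a median control level of 32.7 FPKM. Among the 7144 genes with a mean of at least 5 FPKM, 2088 were higher and 2010 lower. Of the 31 members tested there, 8 were higher and 15 lower. The members' median log2 fold change was -0.011, beside 0.00071 for all tested genes, and their median absolute log2 fold change was 0.30, beside 0.24.

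The treated and control FPKM values did not overlap in 28 of the 33 genes (84.8%), with the treated libraries above in 12 and below in 16. Of all tested genes 58.9% were separated in this way, 33.5% with the treated libraries above and 25.4% with them below. In these bulk libraries, fewer cells in G2 and mitosis and less of a transcript per cell cannot be told apart. Of the 9 genes that rose, 5 (CDC20, HMMR, CCNB1, FOXM1 and PTTG1) passed in every alternative analysis (other scalings, filters and tests, and each library left out), and of the 14 that fell, 13 did (all but KIF2C). Without control library 2, or without control library 3, only 5 members were called higher.

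**Figure D1:**
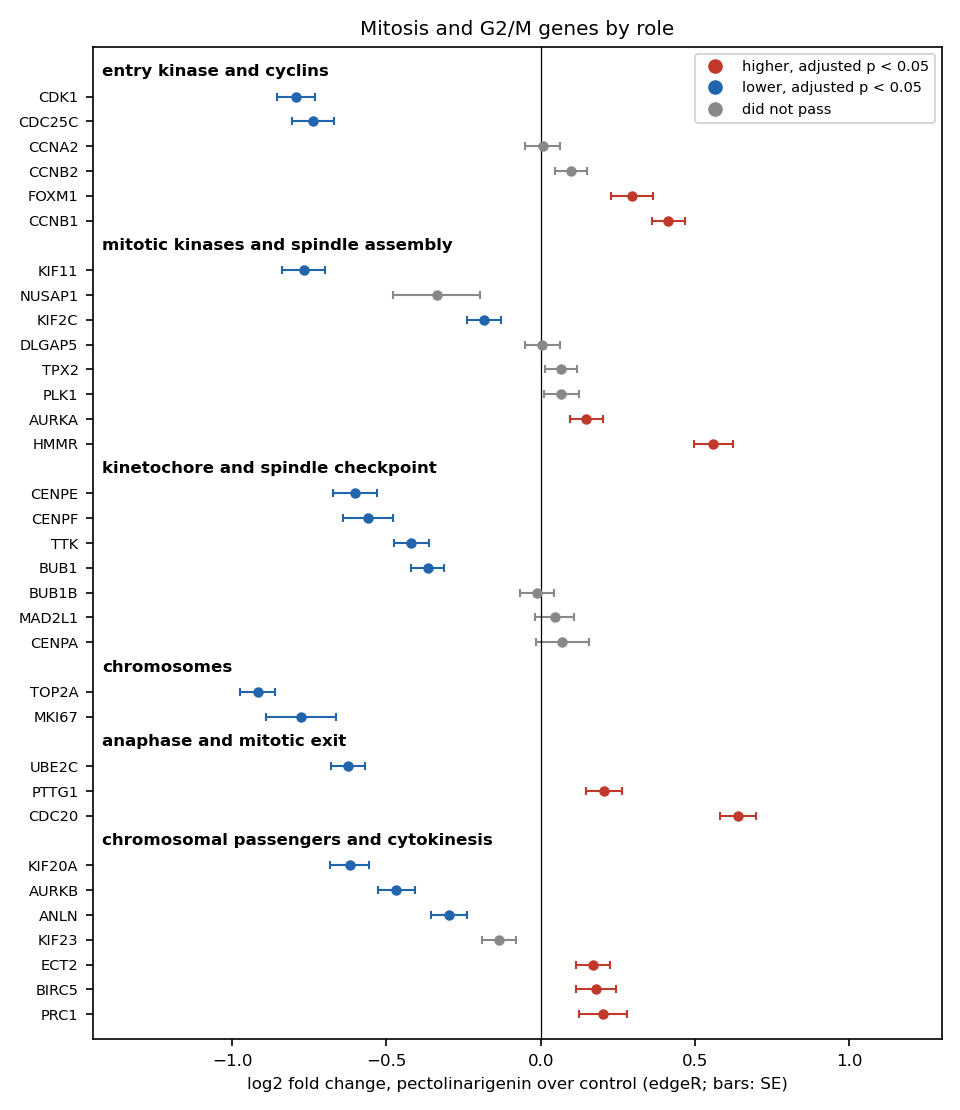
Log2 fold changes (pectolinarigenin over control, edgeR, n = 3 libraries each) of the 33 genes in 6 role groups, with bars of 1 standard error; red points rose, blue points fell and grey points did not pass. Falls reach -0.92 (TOP2A), rises reach 0.64 (CDC20), and the chromosome and kinetochore groups hold no red point.

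Among the genes of mitotic entry, CDK1 and the phosphatase gene CDC25C fell while CCNB1, for cyclin B1, rose. CDK1 (ENSG00000170312, chromosome 10, 60778331 to 60794852, GRCh38) had 52.0, 47.4 and 50.1 FPKM in the controls, numbered 1 to 3, and 28.7, 28.5 and 31.3 after treatment, in the same order of numbers. Its groups did not overlap, and its log2 fold change was -0.79 (SE 0.062, adjusted p = 1.38e-07). CDC25C, which activates CDK1, had 13.8, 13.1 and 13.8 FPKM in the controls and 8.66, 8.31 and 8.07 in the treated libraries (log2 fold change -0.74, SE 0.068, adjusted p = 7.32e-07). Every treated value of CDC25C was below every control value. Other regulators of the same phosphate did not follow 1 direction, in values chosen after they were seen: the phosphatase CDC25B rose by 0.21 (adjusted p = 0.0139), CDC25A was at 0.066 and did not pass, and the inhibitory kinase WEE1 fell by 0.32 (adjusted p = 0.000568), and its relative PKMYT1, at -0.15, did not pass.

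CCNB1 (ENSG00000134057, chromosome 5, 69167010 to 69178245), which encodes cyclin B1, had 70.4, 70.1 and 70.9 FPKM in the controls and 92.8, 96.5 and 99.6 in the treated libraries. The controls differed by less than 1 FPKM and all 3 treated libraries stood above them (log2 fold change 0.41, SE 0.054, adjusted p = 1.99e-05). FOXM1, a transcription factor of G2 and mitosis genes, had 24.7, 26.6 and 27.1 FPKM in the controls against 36.3, 32.8 and 29.7, with treated library 3 nearest to the controls (0.30, SE 0.068, adjusted p = 0.00214). In the reference annotation (GENCODE 29), 15.9% of the exonic bases of FOXM1 lie opposite exons of ITFG2, and no source used here gives the strand setting of the counting. The other cyclins did not pass: CCNB2, for cyclin B2, was at 0.098 on the log2 scale (SE 0.052, adjusted p = 0.128) although its treated values of 47.5 to 47.8 FPKM lay above its control values of 43.2 to 43.5. CCNA2, for cyclin A2, had 0.0069 (SE 0.056, adjusted p = 0.929), with overlapping groups.

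Because both values of a ratio come from the same library, ratios between partners do not depend on the scaling of the libraries. The FPKM ratio of CCNB1 to CDK1 was 1.35, 1.48 and 1.41 in the controls and 3.23, 3.39 and 3.19 in the treated libraries, a 2.31-fold difference. CCNB1 to CCNB2, a pair of cyclins with the same partner, went from 1.63 ± 0.0069 to 2.02 ± 0.064 (SD, n = 3 each). Each of the 4 ratios computed here and below, chosen after their values were seen, had an exact 2-sided permutation p = 0.1, the smallest that 3 against 3 libraries allow (0.1 after adjustment over the 4).

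**Figure D2:**
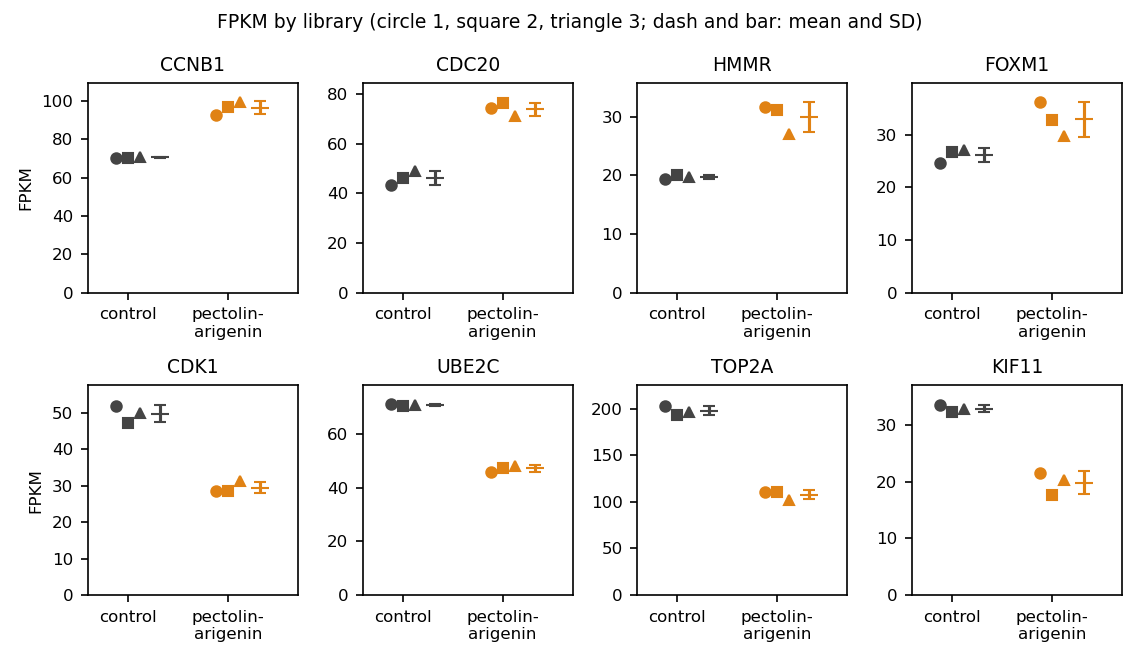
FPKM (vertical axis, from 0) of 8 genes in each control and treated library, with the mean and SD of each group beside the points. In the top row (CCNB1, CDC20, HMMR, FOXM1) every treated value lies above the controls, and in the bottom row (CDK1, UBE2C, TOP2A, KIF11) every treated value lies below them. The genes shown are the members with the smallest p in each direction, so this separation follows from the choice. Of all tested genes, 58.9% were separated in either direction.

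Of the 8 genes of the mitotic kinases and the spindle 2 rose, 2 fell and 4 did not pass, which is near the share of all tested genes in each direction. HMMR (ENSG00000072571, chromosome 5, 163460203 to 163491945), a spindle protein that also binds hyaluronan, had 19.5, 20.1 and 19.7 FPKM in the controls and 31.6, 31.1 and 27.0 in the treated libraries. All treated values were higher, the third by least (log2 fold change 0.56, SE 0.063, adjusted p = 4.49e-06). KIF11 (ENSG00000138160, chromosome 10, 92593286 to 92655395), the kinesin that pushes the spindle poles apart, had 33.5, 32.3 and 32.9 FPKM in the controls and 21.6, 17.6 and 20.2 in the treated libraries (-0.77, SE 0.069, adjusted p = 5.46e-07). HMMR thus rose and KIF11 fell with no overlap of the groups in either gene.

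AURKA, the Aurora kinase of centrosomes and spindle poles, had 51.1, 51.0 and 50.9 FPKM in the controls and 55.9, 58.2 and 59.9 in the treated libraries (log2 fold change 0.15, SE 0.055, adjusted p = 0.0342). Its groups were separate but its call was lost without control library 1 (adjusted p = 0.0715), 2 (0.106) or 3 (0.115), without treated library 2 (0.0662) or 3 (0.0647), and with each library's trend of level with gene length removed (0.0742). KIF2C, a kinesin that takes microtubules apart, fell by 0.18 on the log2 scale (SE 0.054, adjusted p = 0.0114), and lost its call without control library 2 (0.0637) and without the expression filter (0.0742). TPX2, which activates AURKA, stood second to TOP2A in the controls and highest of the 33 after treatment (114.5 ± 0.7 FPKM in the controls and 123.1 ± 1.8 in the treated libraries, SD, n = 3 each) and did not pass (0.066, SE 0.051, adjusted p = 0.303). PLK1, the Polo kinase of mitosis, had 0.067 (SE 0.058, adjusted p = 0.354) and DLGAP5, a protein of kinetochore fibres, 0.0044 (SE 0.057).

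NUSAP1, which bundles spindle microtubules, was the lowest of the group, with 1.68, 1.52 and 1.78 FPKM in the controls and 1.28, 1.45 and 1.31 in the treated libraries. The groups did not overlap, but the difference of -0.34 (SE 0.14) did not pass (adjusted p = 0.0574). Only 74 to 113 counts per library were listed for NUSAP1, and 62.2% of its exonic bases are shared, on the same strand, with a second annotated gene (AC087721.2). No source used here says how reads from shared bases were counted, so the low level of NUSAP1 is uncertain.

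The 7 kinetochore and checkpoint genes among the members fell or did not pass: 4 fell and 0 rose. Of all tested genes, 25.3% fell and 25.3% rose. In the larger list of other kinetochore genes, described below, 8 of 32 rose. CENPE, the kinesin that carries chromosomes to the spindle equator, had 9.35, 9.16 and 9.29 FPKM in the controls and 7.13, 6.02 and 5.70 in the treated libraries (log2 fold change -0.60, SE 0.072, adjusted p = 7.72e-06). CENPF, a large protein of the outer kinetochore, changed by -0.56 (SE 0.081). The checkpoint kinases TTK and BUB1 changed by -0.42 (SE 0.057) and -0.37 (SE 0.053). In all of these the treated values lay below the controls. BUB1B (-0.011, SE 0.055) and MAD2L1 (0.045, SE 0.064), both parts of the complex that inhibits CDC20, and CENPA, the histone H3 variant that marks centromeres (0.070, SE 0.086), did not pass, and their groups overlapped.

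Both genes of chromosome structure among the members fell, beside 25.3% of all tested genes. In the larger list of condensin and chromosome structure, described below, 7 of 11 fell and 2 rose. TOP2A (ENSG00000131747, chromosome 17, 40388516 to 40417950), the topoisomerase that untangles sister chromatids, had the highest control level of the 33, with 203, 193 and 197 FPKM in the controls and 110.2, 110.4 and 102 in the treated libraries. This was the largest fall of the group, by 47.1% (log2 fold change -0.92, SE 0.055, adjusted p = 1.03e-08). MKI67, whose protein coats mitotic chromosomes and is the antigen of the Ki-67 proliferation stain, changed from 43.4 ± 0.7 to 26.1 ± 6.4 FPKM (SD, n = 3 each; -0.78, SE 0.11, adjusted p = 5.1e-05). Its treated libraries were the most spread of any member, at 32.99, 24.7 and 20.5 FPKM.

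Among the 3 genes of anaphase, the activator CDC20 and the securin PTTG1 rose and the ubiquitin-conjugating enzyme UBE2C fell. In each direction, 25.3% of all tested genes were called. CDC20 (ENSG00000117399, chromosome 1, 43358955 to 43363203), which switches on the anaphase-promoting complex, had 43.5, 46.0 and 49.0 FPKM in the controls and 74.4, 76.1 and 70.9 in the treated libraries (log2 fold change 0.64, SE 0.058, adjusted p = 6.44e-07). UBE2C, which hands ubiquitin to that complex, had 71.0, 70.4 and 70.8 FPKM in the controls and 45.9, 47.3 and 48.2 in the treated libraries (-0.62, SE 0.056, adjusted p = 5.24e-07). The order of the 2 genes was reversed: CDC20 stood at 0.613, 0.654 and 0.691 of UBE2C in the controls and at 1.62, 1.61 and 1.47 times UBE2C in the treated libraries. PTTG1, which restrains separase until anaphase, had 72.3, 77.3 and 76.2 FPKM in the controls and 84.9, 89.4 and 92.7 in the treated libraries (0.20, SE 0.058, adjusted p = 0.00809). Its processed copies PTTG3P, PTTG2 and PTTG4P had at most 3 counts in any library, although no source used here says how reads matching several copies were handled.

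The genes of the chromosomal passenger complex and of cytokinesis had 3 of 7 higher, 3 lower and KIF23 not passing, beside 25.3% of all tested genes in each direction. KIF20A, a kinesin of the central spindle, had 26.3, 27.7 and 28.3 FPKM in the controls and 19.0, 19.5 and 16.7 in the treated libraries (log2 fold change -0.62, SE 0.063, adjusted p = 1.9e-06). AURKB, the kinase of the passenger complex, had 46.0, 50.4 and 50.6 FPKM in the controls and 35.0, 38.3 and 35.8 in the treated libraries (-0.47, SE 0.060, adjusted p = 1.61e-05). The FPKM ratio of AURKA to AURKB went from 1.04 ± 0.060 to 1.597 ± 0.077 (SD, n = 3 each), with no overlap between groups. ANLN, a scaffold of the contractile ring, fell by 0.30 (SE 0.059, adjusted p = 0.000657).

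BIRC5 (survivin), a partner of AURKB in the same complex, had 36.9, 36.2 and 37.5 FPKM in the controls and 41.0, 40.9 and 46.6 in the treated libraries (log2 fold change 0.18, SE 0.064, adjusted p = 0.0292). Treated library 3 was the highest, and without it the value was 0.11 (adjusted p = 0.0952); the call was also lost without control library 1 (0.0736), 2 (0.109) or 3 (0.0730). ECT2, which activates RhoA at the division site, had 41.9, 40.1 and 39.8 FPKM in the controls and 48.9, 45.2 and 46.7 in the treated libraries (0.17, SE 0.055, adjusted p = 0.0183). It did not pass without control library 2 (0.0837) or 3 (0.0959). PRC1, which bundles the microtubules of the central spindle, rose by 0.20 (SE 0.079, adjusted p = 0.0439) at a low level, from 4.32 ± 0.19 to 5.11 ± 0.32 FPKM (SD, n = 3 each). Its call was lost without control library 2 (0.134) or 3 (0.143), without treated library 1 (0.0903) or 2 (0.130), in DESeq2 (0.0921), without the expression filter (0.0582) and with the length trend removed (0.0587), and 58.4% of its exonic bases are shared with other annotated genes. KIF23, a kinesin of the central spindle, had -0.14 (SE 0.055, adjusted p = 0.0503).

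**Figure D3:**
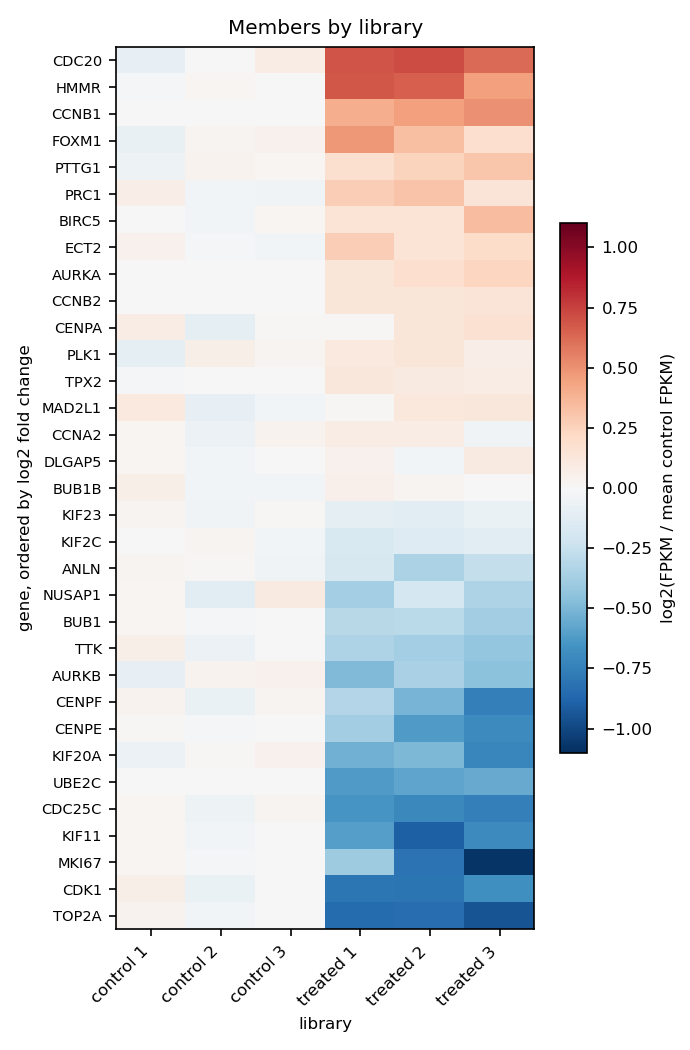
Log2 ratio of each library's FPKM to the mean control FPKM for the 33 genes (rows, ordered by log2 fold change) in the 6 libraries (columns); red is above and blue below the control mean. The 3 treated columns resemble each other, with MKI67, CENPF and CENPE lowest in treated library 3.

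The libraries held 15140022 to 20311261 counts in all. The 33 genes took 0.583% to 0.599% of them in the controls and 0.484% to 0.518% in the treated libraries. This sum is weighted to genes with many counts. TOP2A and MKI67, which held the most counts of the 33 in the controls, both fell, whereas the members' median log2 fold change was -0.011. The median coefficient of variation of a member's FPKM was 2.76% over the controls (0.216% to 7.90%) and 4.35% over the treated libraries (0.346% to 24.4%). Of the 14 genes that fell, treated library 3 was the lowest of its group in 8, and their median log2 ratio to the control mean was -0.44, -0.55 and -0.69 in treated libraries 1 to 3. The hepatocyte markers ALB, AFP, APOA1, APOB, TTR, SERPINA1, HNF4A, FGB and TF, which Huh-7 cells express, summed to 12464 to 12654 FPKM in the controls and 9017 to 9813 in the treated libraries. Of 14 markers of fibroblasts, leukocytes and endothelium, DCN, LUM and KDR had 0 counts in every library, and LYZ (39.3 to 76.5 FPKM) and PECAM1 (1.15 to 2.61) were the ones above 1 FPKM.

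Gene length moved with the treated libraries and with some of these falls. The tested genes were divided into 5 groups of equal size by the length behind the deposited FPKM. In the group of longest genes (8049 bases or more) the median log2 fold change was -0.088, with 38.2% lower and 19.2% higher. The second shortest group had 0.048, with 21.6% lower and 30.7% higher. The shortest group had 0.025, with 13.8% lower and 17% higher, so the share called in either direction also differed with length. The median difference of treated library 3 from treated library 1 in log2(FPKM + 1) ran from 0.055 in the shortest group to -0.11 in the longest. CENPE, CENPF and MKI67 are in the longest group. The shortest group holds UBE2C, which fell, CDC20 and PTTG1, which rose, and CENPA, which did not pass. With each library's trend with length removed, MKI67 was at -0.67, CENPE at -0.53, CENPF at -0.46 and TOP2A at -0.92, each still past the threshold (adjusted p from 1.82e-09 to 2.31e-05), and 16 members were lower and 7 higher. Across the 33 genes Spearman's rho of length and log2 fold change was -0.33, beside -0.098 across all 12829 tested genes, a description over genes that share the same 6 libraries.

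**Figure D4:**
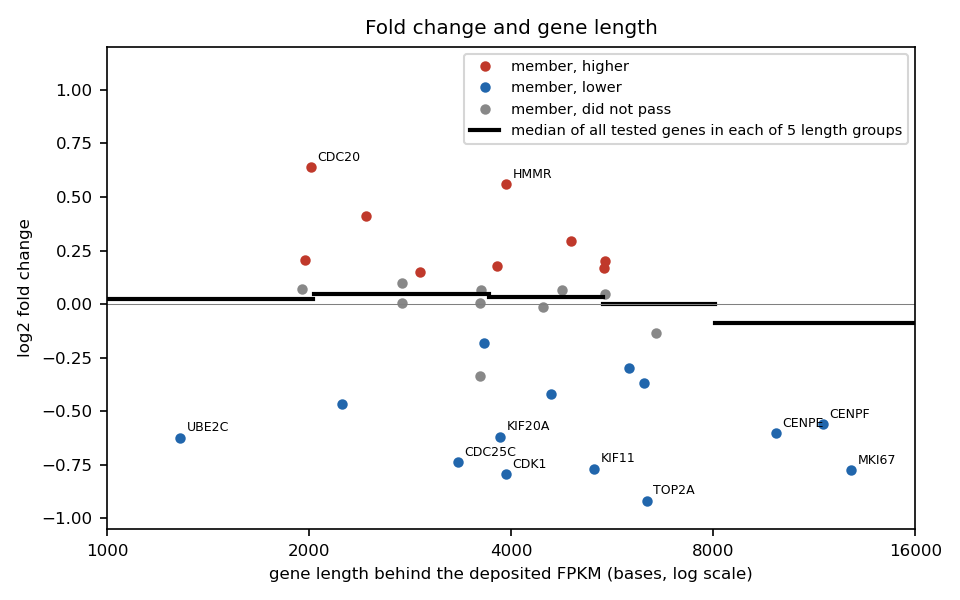
Log2 fold change against gene length (log scale, bases) for the 33 genes, coloured by call, with black bars at the median of all tested genes in each of 5 length groups. The bar of the longest genes sits at -0.088, while CENPE, CENPF and MKI67 lie between -0.56 and -0.78.

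A further 155 genes of mitosis in 8 lists were also called in both directions. Of the 152 that were tested, 37 rose (24.3%), 60 fell (39.5%) and 55 did not pass. The share called was 63.8%, beside 50.6% of all tested genes, of which 25.3% were higher and 25.3% lower. The median log2 fold change was -0.073, beside 0.00071 for all tested genes. No gene of these lists changed 2-fold, as 3.87% of all tested genes did. Condensin and chromosome structure had 7 of 11 lower, among them TOP2B, the second type II topoisomerase (log2 fold change -0.49, SE 0.055), and the condensin II subunit NCAPD3 (-0.63, SE 0.082), and 2 higher, NCAPH2 (0.28, SE 0.078) and the chromosome kinesin KIF4A (0.18, SE 0.055). In the list of the passenger complex and cohesion 8 of 17 fell, including the separase ESPL1 (-0.56, SE 0.072) and the AURKB activator INCENP (-0.55, SE 0.071), and SGO1, which protects centromere cohesion (0.32, SE 0.064), and the cohesin subunit STAG1 (0.33, SE 0.066) rose.

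Of 32 tested kinetochore genes 11 fell (34.4%) and 8 rose (25%), beside 25.3% of all tested genes in each direction. Both SPC24 (-0.88, SE 0.091) and SPC25 (-0.75, SE 0.080), paired subunits of the NDC80 complex, fell. In the same complex NDC80 fell by 0.20 (SE 0.070) with overlapping FPKM, and NUF2, at 0.10 (SE 0.072), did not pass. CENPN, which reads CENPA nucleosomes, rose by 0.38 (SE 0.070) and MAD2L1BP, which helps to silence the checkpoint, by 0.54 (SE 0.11). CENPC, also in this list, fell by 0.54 (SE 0.082). In the spindle and centrosome list 12 of 29 fell and 6 rose, with CKAP5, a microtubule polymerase, at -0.64 (SE 0.065), ASPM at -0.48 (SE 0.078), TACC3, a partner of CKAP5 in spindle fibres, at 0.38 (SE 0.051) and the kinesin KIF18A at 0.37 (SE 0.056). Cytokinesis genes had 4 of 14 lower (28.6%), near the share of all tested genes. Those that fell included RACGAP1, the partner of KIF23 (-0.43, SE 0.062), and RHOA (-0.23, SE 0.057). A further 5 (35.7%) rose, including TSG101 (0.27, SE 0.062) and VPS4B (0.19, SE 0.059) of the abscission machinery.

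Regulators of the members were called in both directions, as were all tested genes (25.3% each way). The anaphase-promoting complex and its cofactors had 5 of 17 higher, led by the subunits ANAPC16 (0.76, SE 0.062) and CDC16 (0.55, SE 0.060), and 6 lower, led by the inhibitor FBXO5 (-0.66, SE 0.076) and the subunit ANAPC13 (-0.29, SE 0.063). Controls of mitotic entry had 7 of 17 lower and 4 higher. CCNF, for cyclin F, changed by -0.58 (SE 0.068) and CDKN1A, the CDK inhibitor p21, by -0.71 (SE 0.11), against 0.56 (SE 0.081) for the stress gene GADD45A and 0.22 (SE 0.061) for the CDK-binding CKS2. Of 15 tested DREAM and MuvB regulators 5 rose and 5 fell. E2F4 (0.61, SE 0.10) and E2F5 (0.37, SE 0.081), which bind DNA in repressive complexes, rose. TFDP2 (-0.73, SE 0.087) and the NF-Y subunit NFYA (-0.45, SE 0.056) fell. The other NF-Y subunits did not fall: NFYC rose by 0.23 (SE 0.081), and NFYB, at 0.023 (SE 0.068), did not pass. TFDP1, at -0.078 (SE 0.053), did not pass either.

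**Figure D5:**
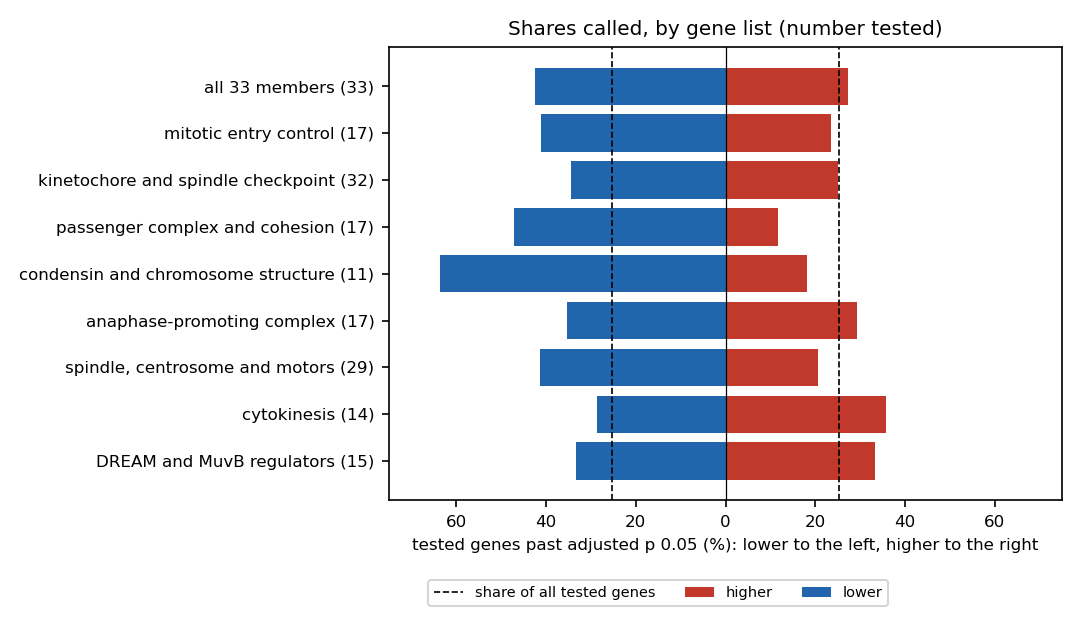
Share of tested genes called higher (red, to the right) and lower (blue, to the left) among the 33 genes and in the 8 further lists, with the number tested in brackets; dashed lines mark the 25.3% of all tested genes called in each direction. Blue bars pass the line in all 9 rows, by least in cytokinesis, and red bars fall short of it in 5.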

How the data were processed

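RNA-seq of 6 libraries was analysed from 1 deposited table of raw counts and FPKM per Ensembl gene. The deposited counts are raw whole numbers. The deposited FPKM are the authors' values, scaled by gene length and library total per the file headers. Per the submitters' processing notes, the build was GRCh38 and the tools included HTSeq 0.6.1, HISAT2 2.0.1 and cutadapt 1.9.1. No source used here gives the annotation or the strand setting. Libraries were grouped by the labels. Counts were tested in R 4.3.3 with edgeR 4.0.16 (quasi-likelihood F test, TMM factors, no covariate, 2-sided) for genes with a mean of at least 1 FPKM, and p-values were Benjamini-Hochberg adjusted over 12829 genes. SE values derive from the F statistic. The test was tried on simulated counts. Alternatives used limma 3.58.1, DESeq2 1.42.0, other scalings, pseudocounts and filters, a replicate block, leaving out each library, and, chosen after seeing the data, removal of the trend with gene length. Members and lists were chosen with earlier results of these data known. All 33 members were named. Values per library were given for the 8 with the smallest p in each direction. They were also given for uncalled members with an absolute log2 fold change of at least 0.2. By rule, up to 2 genes per direction were named in each further list. Any other value per library, and any other gene named from those lists, was chosen after it was seen. Gene positions are from GENCODE 29 by Ensembl identifier. No 2 libraries of a group agreed within sampling noise. Chi-square per degree of freedom was 1.53 to 2.73 for pairs of controls and 4.51 to 11.1 for pairs of treated libraries. The pairs with treated library 3 had the largest values (8.48 and 11.1).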

Additional observations from a re-analysis of the deposited data

How the results depend on the processing

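The 23 called members kept their direction in every alternative that tested them (15, or 14 for PRC1, which with NUSAP1 was left out at a mean of at least 5 FPKM). The number of members called higher was 9, with 5 to 8 when single libraries were left out (5 without control library 2 or 3), and 14 fell, with 13 to 15. Members near 0 changed sign without passing: BUB1B was at 0.027 with library totals only, 0.027 and 0.028 in limma on log2(FPKM + 1) and log2(FPKM + 0.1) and 0.010 without the filter; CCNA2 was at -0.0067 and DLGAP5 at -0.010 with a mean of at least 5 FPKM, and at -0.038 and -0.032 with the length trend removed. Without single libraries BUB1B ran from -0.030 to 0.025, CCNA2 from -0.026 to 0.042 and DLGAP5 from -0.032 to 0.042. The members' median was 0.027 with library totals only, 0.027 and 0.028 in the 2 limma fits, -0.045 with the length trend removed, and -0.032 to 0.018 without single libraries. With a mean of at least 5 FPKM, 7144 genes were tested, and 2088 were higher and 2010 lower. With library totals only, 56.9% of called genes were higher, against an even division with TMM. CCNB2 passed with library totals only (adjusted p = 0.0365) and in limma (0.0168 and 0.0173). KIF23 passed in 4 of 15 alternatives, and NUSAP1 with the length trend removed (0.0361).

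The same replicate numbers in both groups did not pair the libraries: deviations of same-numbered libraries from their group means correlated at -0.0069, 0.025 and -0.012 across genes, and treated library 1 correlated best with control library 3 (0.043). With a replicate block 9 members rose and 14 fell, with a median of -0.010. The smallest called change of a member was 0.15 on the log2 scale (AURKA).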
